A study of Saccharomyces cerevisiae with 8 samples.

Results

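The genes described here are the 10 rows of the yeast count table that encode the SUMO (small ubiquitin-like modifier) conjugation and deconjugation machinery, out of 6120 genes counted: *SMT3*, *AOS1*, *UBA2*, *UBC9*, *SIZ1*, *MMS21*, *ULP1*, *ULP2*, *SLX5* and *SLX8*. They were chosen by name, and all 10 passed the filter on low counts, as did 5909 genes in all. Their polyadenylated mRNA was measured by RNA-seq in 4 budding yeast strains with 2 libraries each, all grown to mid-log phase in SC medium at 30°C. The parental strain was W303a (MATa with the marker alleles *ura3-52* for uracil, *trp1Δ2* for tryptophan, *leu2-3_112* for leucine, *his3-11* for histidine, *ade2-1* for adenine and *can1-100* for canavanine uptake), and the other 3 strains are in this background. The *ubc9-6* strain carries *ubc9-1* in tandem at the *UBC9* locus, with an *ADH1* terminator and a *TRP1* marker between the copies (*ubc9-1:Tadh1:TRP1:ubc9-1*), which gives a Ubc9 enzyme of reduced activity. The Tfg1-HA strain carries 6 HA tags and *Kluyveromyces lactis TRP1* at *TFG1*, which encodes the largest subunit of the general transcription factor TFIIF. The Tfg1-K60,61R-HA strain has the same tag and marker. Lys 60 and Lys 61 of Tfg1, its major site of sumoylation, are replaced by Arg, which reduces but does not abolish that modification. The strain also carries an inadvertent Asn to Gln substitution in Tfg1. W303a alone lacks a *TRP1* marker, so comparisons with it cannot tell a strain's other changes apart from the marker. Each strain is represented by 2 libraries. In the main fit, p-values rest on the spread between libraries of a strain, shared over the 4 strains, and measure no other variation.

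SUMO, encoded by *SMT3*, is a small protein that is joined through its carboxyl terminus to lysines of other proteins. The precursor is first trimmed to a diglycine end by the protease Ulp1, then activated by the heterodimeric E1 enzyme Aos1-Uba2, passed to the single E2 enzyme Ubc9, and transferred to substrates, often with the help of an E3 ligase such as Siz1 or Mms21. Ulp1 and Ulp2 remove SUMO again, Ulp1 from its place at the nuclear pore and Ulp2 mainly from SUMO chains in the nucleus, while the Slx5-Slx8 ubiquitin ligase recognizes proteins that carry SUMO chains. In yeast, chromatin-bound transcription factors are among the main SUMO substrates.

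Of the 10 genes, 5 lie on chromosome IV in the sacCer3 coordinates of the count table. These are *SMT3* (1469400 to 1469705), *UBC9* (337487 to 338070), *UBA2* (1254937 to 1256847), *SIZ1* (1289406 to 1292120) and *SLX5* (429067 to 430926). *AOS1* (895961 to 897004) and *ULP1* (512313 to 514178) are on chromosome XVI, *MMS21* (120498 to 121301) and *SLX8* (395348 to 396172) on chromosome V, and *ULP2* (292633 to 295737) on chromosome IX. *UBA2*, *MMS21*, *ULP1* and *SLX8* are on the minus strand. Only *UBC9* has more than 1 counted exon. None of the 10 overlaps another annotated gene. None has a copy elsewhere with at least 95% identity over at least 50% of its length by BLAST. Reads from a neighbour's transcript that runs beyond its annotated end were not examined. 

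For orientation, 3 stretches of the RefSeq reference (sacCer3, plus strand) are printed. The end of the *SMT3* coding region, chrIV:1469646-1469705, holds in capitals the 2 glycine codons after which Ulp1 cuts, and the 3 codons behind them are lost from the mature modifier. The interval between *UBC9* and *PEX19*, chrIV:337278-337486, separates 2 genes transcribed away from each other whose mRNA was higher in *ubc9-6*, and its capitals mark the match to TATAAA (on the minus strand). The *UBC9* intron, chrIV:337525-337634, lies between the counted exons, and its capitals mark the 5′ splice site, the branch point TACTAAC and the 3′ splice site. All are reference sequence and not that of the *ubc9-6* construct.
SMT3 end: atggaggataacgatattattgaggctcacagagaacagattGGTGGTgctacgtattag
UBC9-PEX19 interval: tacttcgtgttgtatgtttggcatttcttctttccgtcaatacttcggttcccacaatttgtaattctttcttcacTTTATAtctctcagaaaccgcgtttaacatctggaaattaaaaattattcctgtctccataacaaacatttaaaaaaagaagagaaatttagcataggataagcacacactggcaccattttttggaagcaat
UBC9 intron: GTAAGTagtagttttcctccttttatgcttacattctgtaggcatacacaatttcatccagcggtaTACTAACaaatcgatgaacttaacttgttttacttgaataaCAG

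The mRNA levels of the 10 genes spanned a wide range. On the scale of TPM (counts per base of exon, scaled to the same total in each library, so that genes can be compared), *SMT3* was the most abundant, with a mean of 503.5 over the 8 libraries and a range of 473 to 543. *UBC9* followed with a mean of 189 TPM (129 to 347). The E1 subunits came next, *AOS1* at 49.5 TPM (44.7 to 52.4) and *UBA2* at 40.6 TPM (36.2 to 45.8). Thus the modifier lay near the 95th percentile of all genes by mean TPM, at 94.6, while the E1 subunits, at percentiles 59.97 and 53.5, were close to the middle of the table. The desumoylating proteases had mean levels of 35.9 TPM for *ULP1* (29.8 to 43.8) and 17.2 TPM for *ULP2* (14.8 to 19.9). The subunits of the SUMO-targeted ubiquitin ligase had 30.7 TPM for *SLX8* (28.4 to 34.2) and 21.9 TPM for *SLX5* (19.1 to 24.3). The E3 ligase genes were the least abundant, *SIZ1* at 14.1 TPM (11.3 to 16.2) and *MMS21* at 6.70 TPM (4.82 to 8.20), the latter counted with only 156 to 268 fragments per library. The order of the strain means was the same in all 4 strains. The ranges of neighbours in this order over the 8 libraries did not overlap between *SMT3* and *UBC9*, *UBC9* and *AOS1*, *SLX8* and *SLX5*, and *SIZ1* and *MMS21*. The ranges of the other neighbouring genes overlapped.

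**Figure D1:**
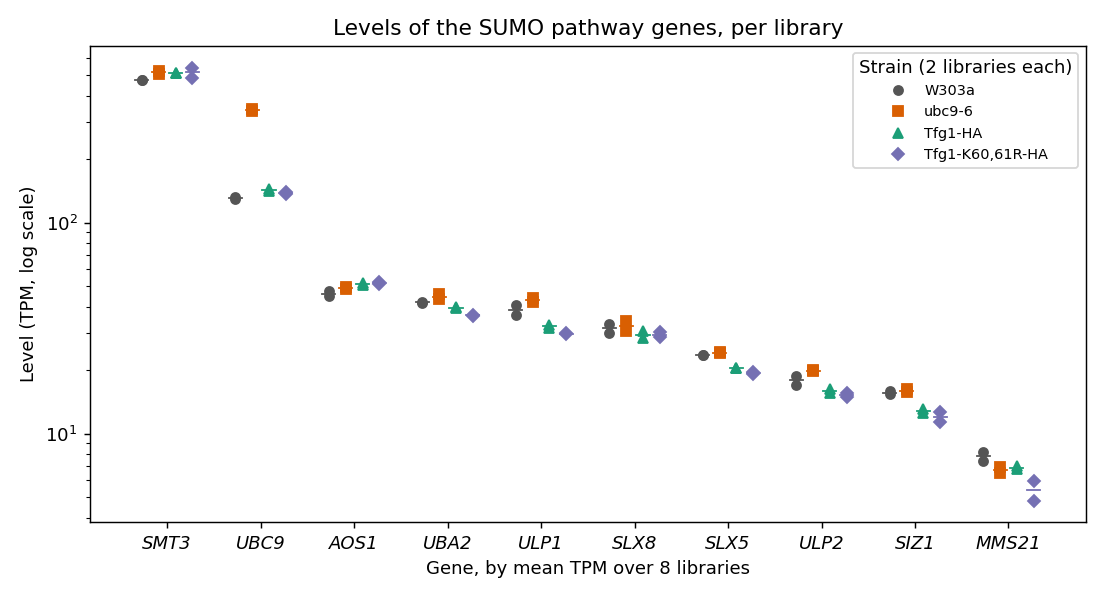
Levels of the 10 genes in TPM on a log axis, with each symbol standing for a library and each short line for the mean of the 2 libraries of a strain. *SMT3* lies at 473 to 543 TPM in all 8 libraries, and *UBC9* is at 338 and 347 TPM in *ubc9-6* but at 129 to 144 TPM in the other 3 strains.

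Together the 10 genes took between 0.0662% and 0.0860% of the counts of a library, with the highest shares, 0.0845% and 0.0860%, in *ubc9-6*. Library totals lay between 26674458 and 34614232 counts. The replicates of Tfg1-K60,61R-HA differed most, with an SD across genes of 0.29 for the log2 difference between replicates, against 0.14 to 0.17 in the other strains.

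In the *ubc9-6* strain, the mRNA of the mutated E2 gene itself rose, and it was the only one of the 10 genes that passed the test. Levels between strains are given in CPM, a count divided by its library's TMM-adjusted total and put on a common scale, which compares a gene between strains but not genes with each other. *UBC9* was at 74.1 and 75.6 CPM in the W303a libraries and at 183.5 and 189.5 CPM in those of *ubc9-6*. The *ubc9-6* values lay far above every other library, since those of the Tfg1 strains were between 81.6 and 83.2 CPM. The increase was 2.49-fold (log2 fold change 1.32, standard error 0.04, 95% confidence interval 1.22 to 1.41, edgeR quasi-likelihood test with Benjamini-Hochberg adjusted p = 1.29e-06), and it was called in all 17 alternative fits. As counts are relative to the library, a change common to all mRNAs would not be seen here or in any other comparison. The counts cannot tell the copies of the tandem allele apart, because reads from either copy would be assigned to the same annotated gene. For the same reason the increase cannot be told apart from the construct itself. In this comparison 11.4% of all genes tested were called higher and 9.36% lower, and 1 of 10 genes higher and 0 of 10 lower is close to the background in the first direction and below it in the second.

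None of the other 9 genes of the pathway was called in *ubc9-6*, and all but *MMS21* had small estimated changes. *MMS21*, described below, was at percentile 84.9 of all genes tested by absolute log2 fold change. *SMT3*, which encodes the modifier, was at 175.1 and 174.6 CPM in W303a and at 178.1 and 184.0 CPM in *ubc9-6*, a log2 fold change of 0.05 (95% confidence interval −0.09 to 0.19, edgeR adjusted p = 0.578). Both *ubc9-6* libraries lay just above both W303a libraries, but the difference was not called. The E1 subunit genes *AOS1* and *UBA2* had log2 fold changes of 0.02 each, and their libraries overlapped between the strains. *SIZ1* (−0.04), *SLX5* (−0.02) and *SLX8* (−0.03) were as close to 0, and *ULP1* and *ULP2* were at 0.08 and 0.09. For each of these 9 genes, the interval excluded a change beyond 1.5-fold either way. The median absolute log2 fold change of the 10 genes was 0.04, against 0.12 over all genes tested. The strains' libraries were fully separated for 5 of the 10 genes, and for 71.4% of all genes.

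*MMS21*, which encodes the SUMO ligase of the Smc5/6 complex, had the lowest counts and the widest interval. It was at 7.22 and 7.91 CPM in W303a and at 6.39 and 6.01 CPM in *ubc9-6*. These groups did not overlap, and the log2 fold change was −0.29 (95% confidence interval −0.57 to −0.01, unadjusted p = 0.0468 and adjusted p = 0.13 in the edgeR quasi-likelihood test). It was called lower only when the 4 libraries of the comparison were fitted alone (edgeR adjusted p = 0.048), a fit in which 2090 genes were called against 1229 with all 8 libraries.

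The increase of *UBC9* also set the ratios between partner genes, which restate it and are no separate evidence. The ratio of *SMT3* to *UBC9* TPM was 3.66 and 3.58 in W303a but 1.504 on average in *ubc9-6*, and the ratio of *UBC9* to the E1 gene *UBA2* went from 3.06 and 3.18 to 7.37 and 7.99. The ratio of *AOS1* to *UBA2*, which encode the subunits of the E1 heterodimer, was 1.09 ± 0.04 (SD, n = 2) in W303a and 1.10 ± 0.02 (SD, n = 2) in *ubc9-6*. The *SIZ1* to *MMS21* ratio was 2.01 ± 0.19 (SD, n = 2) in W303a and 2.39 ± 0.15 (SD, n = 2) in *ubc9-6*. No test of the ratios was run, since the smallest two-sided p of an exact permutation test is 0.333 for 2 libraries in each strain.

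**Figure D2:**
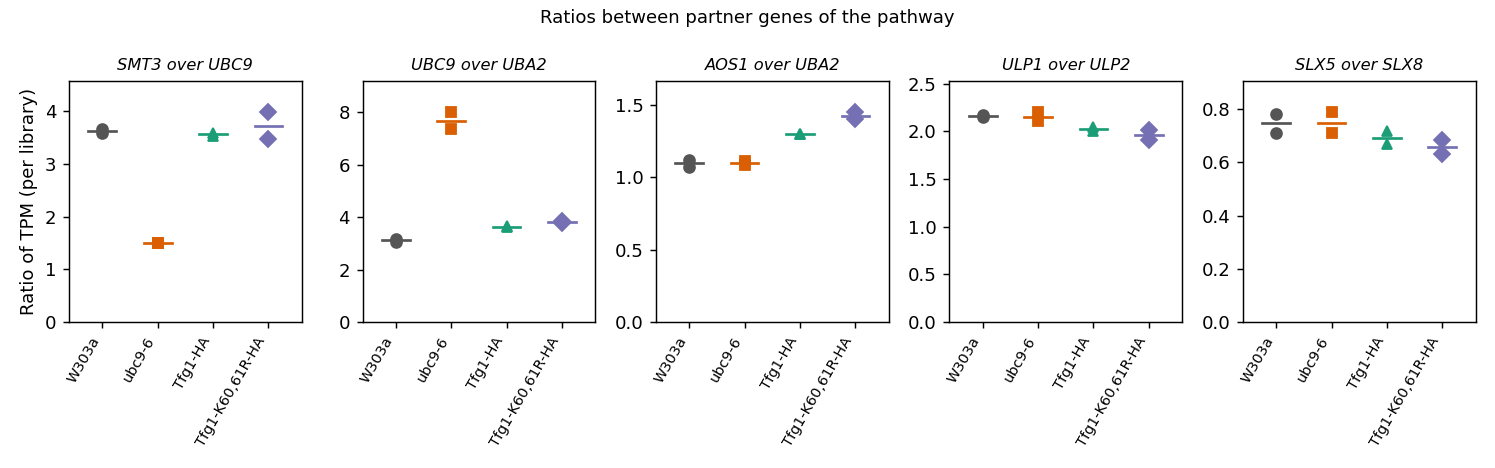
Ratios of TPM between partner genes, with each symbol standing for a library and each line for the mean of the 2 libraries of a strain, on linear axes that start at 0. The *SMT3* to *UBC9* ratio is 1.504 in *ubc9-6* and between 3.47 and 3.97 in the other strains, whereas the *AOS1* to *UBA2* ratio is 1.30 and 1.42 on average in the 2 Tfg1 strains against 1.09 in W303a.

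The neighbours of *UBC9* were examined because the construct changes this locus. *PEX19*, which encodes an import receptor for peroxisomal membrane proteins and is transcribed away from *UBC9* across the interval of 209 bases printed above, rose in *ubc9-6*. It was at 80.0 and 86.0 CPM in W303a and at 132.0 and 128.6 CPM in *ubc9-6*, with 87.8 to 96.1 CPM in the Tfg1 strains. The *ubc9-6* libraries were above all 6 others. The increase was 1.57-fold (log2 fold change 0.65, standard error 0.06, edgeR adjusted p = 2.67e-04) and was called in all 17 alternative fits. On the other side, *SYO1*, a chaperone gene for ribosomal proteins that is transcribed towards *UBC9*, was not called (log2 fold change −0.16, edgeR adjusted p = 0.0985). Farther out, *IDP1* (0.16) and *RPS29B* (0.01) were not called, while *COX9*, encoding a subunit of cytochrome *c* oxidase, was higher (0.28, edgeR adjusted p = 0.0152) and *TSR1*, encoding a ribosome assembly factor, was lower (−0.26, edgeR adjusted p = 0.0393). The *COX9* and *TSR1* calls were lost without either W303a library or without *ubc9-6* replicate 2, with adjusted p up to 0.127 and 0.265 (edgeR), and that of *TSR1* also with the replicate block or without TMM, so that it was kept in 12 of 17 alternative fits.

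*TRP1*, the marker inside the construct, was at 13.9 and 14.8 CPM in W303a, whose own *trp1* allele is mutant, and at 351 and 366 CPM in *ubc9-6*. This 24.99-fold difference (log2 fold change 4.64, edgeR adjusted p = 7.34e-10) sets the *ubc9-6* libraries apart as their label says. The Tfg1 strains, which carry the marker of another yeast species, had 18.03 to 19.03 CPM. *TRP1* was called higher in Tfg1-HA than in W303a (log2 fold change 0.33, edgeR adjusted p = 0.00206).

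**Figure D3:**
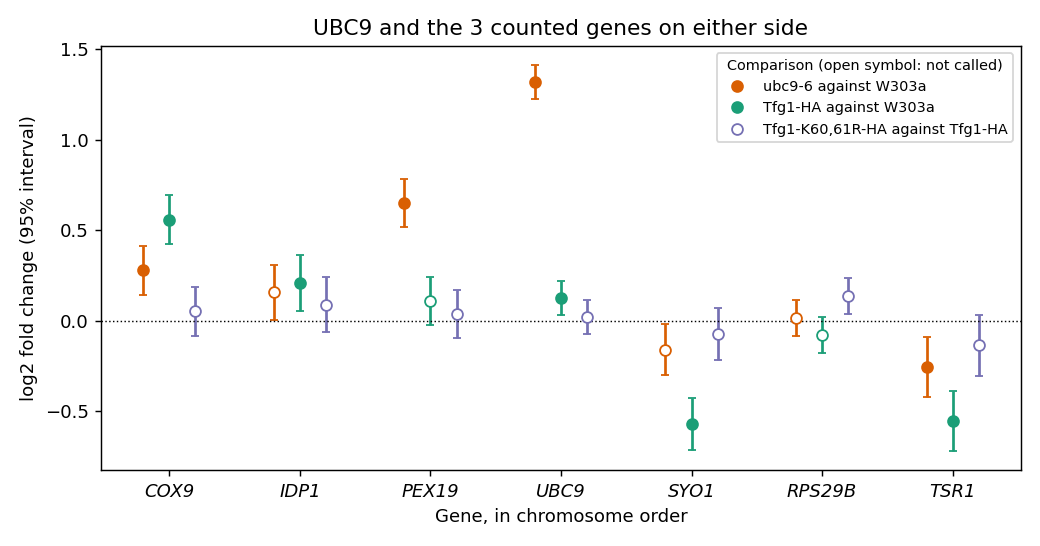
Log2 fold changes with 95% confidence intervals for *UBC9* and the 3 counted genes on either side, in chromosome order, for 3 comparisons, with filled symbols for called genes. In *ubc9-6* against W303a, *UBC9* (1.32) and its divergent neighbour *PEX19* (0.65) have the highest values, and the gene on the other side, *SYO1*, is at −0.16.

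Of the 10 genes, 7 have a neighbour transcribed in the opposite direction as their nearest upstream gene, a comparison made after the values were seen. *PEX19* was the only one of these 7 neighbours called higher in *ubc9-6*. *RPL23B*, the ribosomal protein gene upstream of *SLX8*, was lower (log2 fold change −0.18, edgeR adjusted p = 0.036). The neighbours of *SMT3* (*GNP1*, −0.08), *AOS1* (*HDA3*, 0.05), *SIZ1* (*ADE8*, 0.002), *MMS21* (*EAF5*, −0.12) and *ULP2* (*BCY1*, 0.12) were not called.

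Other genes that act with the SUMO pathway were taken from a list of 5. *ESC2*, which encodes a protein with SUMO-like domains that acts in silencing and genome stability, was lower in *ubc9-6*, at 44.7 and 43.6 CPM in W303a and 35.3 and 35.9 CPM in the mutant (log2 fold change −0.31, edgeR adjusted p = 0.00631). The call was lost without W303a replicate 1 or *ubc9-6* replicate 2, with an edgeR adjusted p of at most 0.0549. *NFI1*, a further E3 ligase gene also known as *SIZ2*, *CST9*, an E3 gene of meiosis, *ULS1*, a translocase gene related to SUMO-targeted ubiquitin ligases, and *WSS1*, a SUMO-dependent protease gene, were not called, with log2 fold changes of −0.10, 0.24, −0.07 and −0.07.

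Among Cdc48, its cofactors and the ubiquitin E2 genes that act with Slx5-Slx8, 2 of 5 rose in *ubc9-6* and 0 fell, beside 11.4% of all genes higher and 9.36% lower. *UBC5*, which encodes a ubiquitin-conjugating enzyme of the stress response, went from 24.9 and 23.3 CPM to 36.2 and 41.7 CPM (log2 fold change 0.69, edgeR adjusted p = 0.0021), and *NPL4*, a Cdc48 cofactor gene, had a log2 fold change of 0.18 (edgeR adjusted p = 0.0189). Of the genes for other ubiquitin-like modifiers and ubiquitin E1 and E2 enzymes, 4 of 24 (16.7%) rose and 0 fell, which is near the share over all genes. These were *ATG8*, encoding the autophagy modifier (0.51), *UBC13* (0.38) and *MMS2* (0.21), whose products form a heterodimer that builds ubiquitin chains in DNA damage tolerance, and the polyubiquitin gene *UBI4* (0.19). The calls of *UBC5* and *UBC13* were kept in all 17 alternative fits, whereas those of *NPL4*, *ATG8*, *MMS2* and *UBI4* were lost without one library or another of W303a or *ubc9-6*, with edgeR adjusted p up to 0.135, 0.174, 0.193 and 0.176, and that of *NPL4* also with DESeq2.

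None of the 7 Smc5/6 genes was called in *ubc9-6* by the edgeR quasi-likelihood test. Of 11 genes for pore and import proteins that hold Ulp1 at the nuclear envelope, 1 was lower, *MLP2* (log2 fold change −0.19, edgeR adjusted p = 0.0384). Of 16 genes for known SUMO substrates, 1 was higher, the topoisomerase gene *TOP2* (0.15, edgeR adjusted p = 0.0471), and 1 was lower, *TOP1* (−0.16, edgeR adjusted p = 0.0467). These 3 calls were near the threshold, and each was lost in between 8 and 10 of the 17 alternative fits. The medians of the lists, from −0.08 to 0.15, compare with −0.004 over all genes tested.

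The epitope-tagged Tfg1-HA strain was compared with the same W303a libraries, so that this comparison and that of *ubc9-6* share their control. The *TRP1* marker, which W303a lacks, cannot be told apart from the tag here. Of the 10 genes, 6 changed by the edgeR quasi-likelihood test, all by small amounts. *SIZ1*, *ULP1*, *SLX5* and *ULP2* fell, and *AOS1* and *UBC9* rose. In this comparison 21.5% of all genes tested were called higher and 21.5% lower, so 2 of 10 higher is close to the background and 4 of 10 lower is above it. Every interval of the 10 excluded a change beyond 1.5-fold, and the median absolute log2 fold change of the 10 genes, 0.16, was close to that of all genes, 0.17. The libraries of the strains did not overlap for 9 of the 10 genes, where 77.3% of all genes did not.

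*SIZ1*, the gene of the main mitotic SUMO E3 ligase, was at 52.3 and 50.1 CPM in W303a and at 41.3 and 42.2 CPM in Tfg1-HA. Both Tfg1-HA libraries were below all libraries of W303a and *ubc9-6* (log2 fold change −0.29, standard error 0.06, edgeR adjusted p = 0.00458). *ULP1* was at 82.5 and 91.3 CPM in W303a and at 72.0 and 72.8 CPM in Tfg1-HA (log2 fold change −0.26, standard error 0.05, edgeR adjusted p = 0.00528). The *SIZ1* and *ULP1* calls were kept in all 16 alternative fits. *SLX5* was at 52.9 and 52.5 CPM in W303a and at 46.1 and 45.2 CPM in Tfg1-HA (log2 fold change −0.21, edgeR adjusted p = 0.00591), a call lost only without Tfg1-HA replicate 2, where the adjusted p was 0.051 (edgeR).

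The other 3 calls were less stable. *ULP2* was at 63.9 and 69.8 CPM in W303a and at 58.7 and 60.4 CPM in Tfg1-HA (log2 fold change −0.17, edgeR adjusted p = 0.0367). *AOS1* was at 59.6 and 56.0 CPM in W303a and at 64.5 and 64.1 CPM in Tfg1-HA (log2 fold change 0.15, edgeR adjusted p = 0.0277). *UBC9* was at 81.6 and 81.7 CPM in Tfg1-HA, against 74.1 and 75.6 CPM in W303a (log2 fold change 0.12, edgeR adjusted p = 0.0373). In all 3 the libraries of the strains were separate but close. *ULP2* and *UBC9* kept their call in 8 of 16 alternative fits and *AOS1* in 10 of 16, with edgeR adjusted p of up to 0.276, 0.153 and 0.208 when 1 library was left out. Only 3 of the 10 genes, *SIZ1*, *ULP1* and *SLX5*, were called by DESeq2.

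The genes not called in Tfg1-HA were *SMT3* (log2 fold change 0.10, edgeR adjusted p = 0.204), *UBA2* (−0.09, edgeR adjusted p = 0.109), *MMS21* (−0.18, edgeR adjusted p = 0.26) and *SLX8* (−0.10, edgeR adjusted p = 0.321). The E1 subunit genes had opposite estimates, so that the *AOS1* to *UBA2* ratio was 1.30 ± 0.003 (SD, n = 2) in Tfg1-HA against 1.09 ± 0.04 (SD, n = 2) in W303a. The ratio of the protease genes *ULP1* to *ULP2* was 2.02 ± 0.03 (SD, n = 2), against 2.16 ± 0.02 (SD, n = 2) in W303a.

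**Figure D4:**
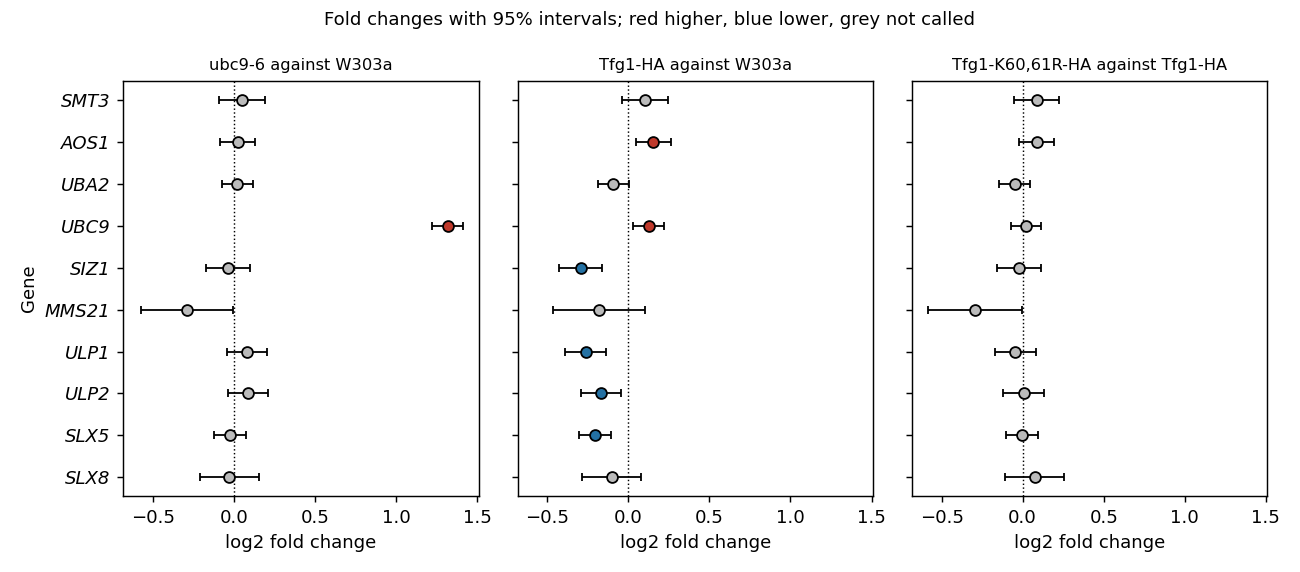
Log2 fold changes of the 10 genes with 95% confidence intervals from the edgeR quasi-likelihood fit, in 3 comparisons, with red symbols for genes called higher, blue for genes called lower and grey for genes not called. *UBC9* stands alone at 1.32 in *ubc9-6*, 6 genes are called in Tfg1-HA with values between −0.29 and 0.15, and none is called in Tfg1-K60,61R-HA against Tfg1-HA.

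In the same comparison, *ESC2* was lower (30.2 and 31.6 CPM, log2 fold change −0.52, edgeR adjusted p = 2.12e-04), as was *WSS1* (−0.23, edgeR adjusted p = 0.0372), and *CST9* was higher (0.30, edgeR adjusted p = 0.0362). The *ESC2* call was kept in all 16 alternative fits, while the others were lost without either W303a library, among other settings, with edgeR adjusted p up to 0.143 and 0.231. *NFI1* (−0.19) and *ULS1* (−0.12) were not called. The counts of the lists in this comparison stand beside 21.5% of all genes called higher and 21.5% lower. Of the 11 pore and import genes, 6 fell and 0 rose, the lowest being *ESC1* (−0.38), *MLP2* (−0.38), *MLP1* (−0.37) and *PSE1* (−0.31). *ESC1* encodes a protein of the nuclear envelope, *MLP1* and *MLP2* proteins of the nuclear basket, and *PSE1* an importin. Of the 7 Smc5/6 genes, 1 fell, *SMC5* (−0.31), and 0 rose. Of the 16 substrate genes, 6 fell and 1 rose, among them *TOP1* (−0.34), *TFG1* itself (−0.23), *CYC8* (−0.22) and, higher, *TUP1* (0.24). The tag and marker of this strain are integrated at *TFG1*, and whether they alter its count was not tested. *CYC8* and *TUP1* encode the partners of a corepressor. Of the 5 genes for Cdc48 and its partners, *UBC5* (0.55), *UBC4* (0.19) and *NPL4* (0.13) rose. Of the 24 genes for other ubiquitin-like modifiers and ubiquitin enzymes, 10 rose and 0 fell, led by *ULA1* (0.57), which encodes an E1 subunit for the modifier Rub1, and *ATG8* (0.42), *UBI4* (0.40) and *UBC13* (0.40). The calls of *UBC4*, *NPL4*, *CYC8*, *ATG8* and *IDP1* were lost when a library of W303a or Tfg1-HA was left out, with edgeR adjusted p up to 0.0648, 0.196, 0.0811, 0.109 and 0.203. *NPL4* was called in only 7 of 16 alternative fits, and was also lost with the likelihood ratio test, DESeq2, the replicate block or either *ubc9-6* library left out. Among the neighbours of *UBC9*, *PEX19* was not called (log2 fold change 0.11, edgeR adjusted p = 0.157), *SYO1* (−0.57) and *TSR1* (−0.55) fell, and *COX9* (0.56) and *IDP1* (0.21) rose.

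The Tfg1-K60,61R-HA strain was compared with its tagged control to ask whether the loss of the major sumoylation site of Tfg1 changes the mRNA of the SUMO machinery. None of the 10 genes was called by the edgeR quasi-likelihood test or by its likelihood ratio test, and 1 of the 10, *MMS21*, had an unadjusted p under 0.05. Over all genes tested, 0% were called (0 genes, with 3 by the likelihood ratio test and 36 by DESeq2, which gave an adjusted p for only 525 genes and for 0 of the 10), although 572 had a p under 0.05 before adjustment. The study's own edgeR analysis of these strains called a few genes, most of them higher in the mutant. The strains' libraries were fully separated for 5 of the 10 genes, and for 35.8% of all genes. Again every interval of the 10 excluded a change beyond 1.5-fold, although that of *MMS21* (log2 −0.582 to −0.003) came close to this bound.

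*MMS21* was at 6.62 and 6.74 CPM in Tfg1-HA and at 4.93 and 6.01 CPM in Tfg1-K60,61R-HA. The mutant libraries were both lower but differed more from each other than those of the control, and the log2 fold change was −0.29 (standard error 0.13, edgeR adjusted p = 0.514). *SMT3* was at 189.2 and 186.2 CPM in Tfg1-HA and at 211.7 and 186.7 CPM in Tfg1-K60,61R-HA, with a log2 fold change of 0.09 (edgeR adjusted p = 0.633). Here 1 mutant library was high and the other was within the range of the control. *AOS1* was at 69.7 and 66.8 CPM in the mutant, above both control values (log2 fold change 0.09, edgeR adjusted p = 0.544). *UBC9*, at 82.5 and 83.2 CPM, had a log2 fold change of 0.02 with an interval of −0.07 to 0.12. The remaining genes were between −0.05 and 0.07. None of the genes of the other lists was called in this comparison by the edgeR quasi-likelihood test.

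Whether the mutations had unequal effects, taken as the log2 fold change of *ubc9-6* relative to W303a minus that of Tfg1-K60,61R-HA relative to Tfg1-HA, was tested in the same fit. *UBC9* was the only one of the 10 genes called, at 1.30 on the log2 scale (standard error 0.06, edgeR adjusted p = 2.58e-05). Its locus holds *ubc9-1* in tandem in *ubc9-6*, so this call cannot be told apart from the construct. In this test 3.22% of all genes were called higher and 2.86% lower, against 1 of 10 and 0 of 10 here. For the other 9 genes the difference was between −0.10 and 0.12, and *MMS21*, which had nearly the same estimate in both comparisons, was at 0.00 with a wide interval of −0.40 to 0.41.

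Across the 8 libraries the levels of several of these genes varied together. By Pearson correlation of log2 CPM, *SIZ1* and *SLX5* (r = 0.97) and *ULP1* and *ULP2* (r = 0.96) were the most alike, while *AOS1* and *ULP1* were the most opposed (r = −0.93). The 3 genes with the pattern most like that of *SMT3*, among 5193 genes with a mean of at least 10 CPM, were *FET4*, an iron transporter gene (r = 0.99), *SUL2*, a sulfate permease gene (r = 0.99), and *COX5B*, the gene of a cytochrome *c* oxidase subunit used at low oxygen (r = 0.98). Their means were lowest in W303a and highest in Tfg1-K60,61R-HA, as were those of *SMT3*, but they covered a wider range, for example 19.2 to 39.1 CPM for *SUL2* against 175 to 199 CPM for *SMT3*. These correlations describe 8 libraries that share strains, and no test was made.

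The 250 bases before the start codons were searched on both strands for the letters of 4 promoter motifs. TATAAA was found in 6 of the 10 genes (*AOS1*, *UBA2*, *UBC9*, *SIZ1*, *MMS21* and *SLX8*), where 43.4% of 6001 promoters of the same length hold it on either strand. It was on the gene's own strand only in *MMS21* and *SLX8*. In *AOS1*, *UBA2*, *UBC9* and *SIZ1* it was on the opposite strand. Before *UBC9* the match begins 133 bases from the start codon, within the interval that is shared with *PEX19*, and lies on the strand of *PEX19*. The Reb1 motif TTACCCG (7.03%), the MCB motif ACGCGT (2.9%) and the PACE motif GGTGGCAAA (1.13%) were found in none of the 10.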

How the data were processed

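Fragments were aligned with HISAT2 2.1.0 and counted on exons with featureCounts of Subread 2.0.0 (sacCer3), according to the submitters' processing notes, without strand and without multi-mapping reads, although the library kit marks strand. The authors deposited these counts per gene without normalization. They also deposited 2 tables of their own comparisons (edgeR 3.32.1), with fold changes and p-values. These tables are identical to each other and were not used here. All 8 libraries were fitted with edgeR 4.0.16 (R 4.3.3), using strain as the only factor, the quasi-likelihood test, TMM normalization and the default low-count filter, with Benjamini-Hochberg adjustment over all 5909 genes tested and calls at an adjusted p under 0.05. TPM were computed from counts and exon lengths. Alternatives used RLE or no size factors, the likelihood ratio test, DESeq2 1.42.0, other filters, only the libraries compared, a replicate block, each library left out, and, added after the data had been seen, a crossed block. Simulated counts with known changes were used to check the fitting procedure. The named genes are the 10 genes, the other lists' called genes (at most 4 per list and comparison, by size), all 5 further SUMO genes, 3 neighbours on either side of *UBC9*, *TRP1*, and the 3 genes most correlated with *SMT3*. The genes and lists were chosen with earlier results of these data known. Sequences are from RefSeq, and copies were searched with BLAST 2.17.0.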

Additional observations from a re-analysis of the deposited data

Results flagged for a closer look

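For 5 named genes the difference between *ubc9-6* and W303a was unlike that between the Tfg1 strains, by edgeR's quasi-likelihood test of the difference itself. Of these, *UBC9* and *TRP1* are parts of the *ubc9-6* construct, which holds *ubc9-1* in tandem around the marker. Their calls cannot be told apart from how the strain was built. The differences were 1.30 on the log2 scale for *UBC9* (adjusted p = 2.58e-05), 0.61 for its neighbour *PEX19* (adjusted p = 0.00471), 4.598 for the marker *TRP1* (adjusted p = 1.33e-08), 0.55 for *UBC5* (adjusted p = 0.0458) and −0.31 for *ESC2* (adjusted p = 0.0497). Mean *UBC5* was 24.1 CPM in W303a, against 38.9 in *ubc9-6*, 35.2 in Tfg1-HA and 38.8 in Tfg1-K60,61R-HA. Mean *ESC2* was 44.2 CPM in W303a, against 35.6, 30.9 and 30.9 in the same order. Both were also called in Tfg1-HA against the same W303a libraries, at 0.55 and −0.52 (edgeR adjusted p = 0.00213 and 2.12e-04). These 2 differences are therefore not particular to *ubc9-6*. The calls of *UBC9*, *PEX19* and *TRP1* were kept in all 15 alternative fits, those of *UBC5* and *ESC2* in 8 and 4 of them.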

How the results depend on the processing

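*UBC9* was called higher in *ubc9-6* in all 17 alternative fits, and *SIZ1* and *ULP1* lower in Tfg1-HA in all 16. The number of genes called in *ubc9-6* was 1229, and with a single library left out it was between 262 and 1921, with 2090 genes and 2 of the 10 SUMO genes called (*UBC9* and *MMS21*) from only the 4 libraries compared. Without TMM the *ubc9-6* calls split into 1162 higher and 193 lower, against 676 and 553. In Tfg1-HA the count of all genes called was between 1560 and 3031, and that of the 10 genes between 2 and 6, with single libraries left out, and DESeq2 called 3 of the 10. Between the Tfg1 strains, the likelihood ratio test called 3 genes, DESeq2 36, and leaving out libraries gave between 0 and 446. The difference of the mutation effects gave 647 genes without TMM and between 94 and 672 with libraries left out.

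Small changes near 0 crossed it in some fits, none of them called. Without TMM the log2 values became 0.036, 0.047 and 0.043 for *SIZ1*, *SLX5* and *SLX8* and 0.0067 for *ULS1* in *ubc9-6*, −0.022 and −0.038 for *UBC9* and *ULP2* in Tfg1-K60,61R-HA, and 0.080, 0.052, 0.10, 0.095 and 0.013 for the difference in *SMT3*, *AOS1*, *SIZ1*, *SLX5* and *SLX8*. With single libraries left out, *AOS1* ranged from −0.022 to 0.068, *UBA2* from −0.016 to 0.056 and *SLX8* from −0.11 to 0.049 in *ubc9-6*. In Tfg1-K60,61R-HA, *SMT3* ranged from −0.0086 to 0.17, *SIZ1* from −0.091 to 0.049, *ULP2* from −0.047 to 0.053 and *SLX5* from −0.018 to 0.0096. The difference ranged from −0.12 to 0.054 for *SMT3*, −0.090 to 0.056 for *SIZ1* and −0.14 to 0.15 for *MMS21*. The causes were not tested.

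The labels do not say whether replicate numbers pair the samples. Deviations of same-numbered libraries correlated between −0.19 and 0.12, which cannot decide it. With the replicate block, 1107 genes and 1 of the 10 were called in *ubc9-6*, and 5 of the 10 in Tfg1-HA, without *ULP2* (edgeR adjusted p = 0.0516). A crossed block, added after the data had been seen, called 1282 genes and 1 of the 10 in *ubc9-6*. The depth limits *MMS21* most, at 156 to 268 counts.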
